A study of Mus musculus with 6 samples.

Results

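The genes described here carry fatty acids from the blood into the mitochondrion, break them down there by beta-oxidation and burn ketone bodies. They were 38 genes listed by name for their textbook roles, from uptake over activation, the carnitine shuttle and the oxidation cycle to ketone use, and 35 of them were measured among 19505 genes with a symbol. Acsl1, Acsl3 and Etfb were not analysed here. The hearts came from 3 sham and 3 CKD mice of the Balb/c strain, hybridised to Affymetrix Clariom S arrays with 1 array per mouse. CKD mice had part of the right renal cortex electrocoagulated and the left kidney removed in a later operation, and sham mice had only the abdomen opened. All Balb/c mice were male and were operated on at 8 weeks of age according to the methods, which name neither the chambers of the heart that were taken nor which set of mice gave the array hearts, so the time in CKD and the age at sampling are not known here. Levels are on a log2 scale after robust multiarray averaging by the authors, so that a difference of 1 is a 2-fold change. That averaging aligns the probe intensities of all arrays to 1 distribution, not the gene levels themselves. A gene passed the criterion if it differed by more than 1.5-fold, up or down, with a p under 0.05, the limits given in the methods. That p was unadjusted and came from limma's moderated test, a choice made here. An adjusted p over all genes stands beside it.

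Beta-oxidation shortens an acyl-CoA by repeated rounds of dehydrogenation, hydration, a second dehydrogenation and thiolysis, and passes electrons to the respiratory chain through flavoproteins and NADH. Long-chain fatty acids reach the matrix only after activation to acyl-CoA and transfer to carnitine, a step held back by malonyl-CoA. The adult heart draws most of its ATP from fatty acids and also oxidises ketone bodies, which it takes up from the blood.

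Of the 35 measured members, 1 was higher in CKD than in sham hearts, none was lower and 34 did not pass the criterion. The higher gene was Hadh, the short-chain 3-hydroxyacyl-CoA dehydrogenase of the matrix, with a log2 fold change of 1.29. That is 2.86% of the members, against 6.32% of all genes tested past the criterion, 3.13% higher and 3.19% lower. No member had an adjusted p under 0.05 from limma, the lowest being 0.448, and 1 had an unadjusted p under 0.05. Over all genes 2 (0.0103%) had an adjusted p under 0.05. The median log2 fold change was 0.00 over the members and 0.00 over all genes, with 17 members above 0 and 18 below. In size, the median difference was 0.227 for the members and 0.193 for all genes. Of the members, 29 differed by less than 1.3-fold, a count that was not taken over all genes. On the plot of members by array the sham and CKD points lay among each other for all members but Acadvl.

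**Figure D1:**
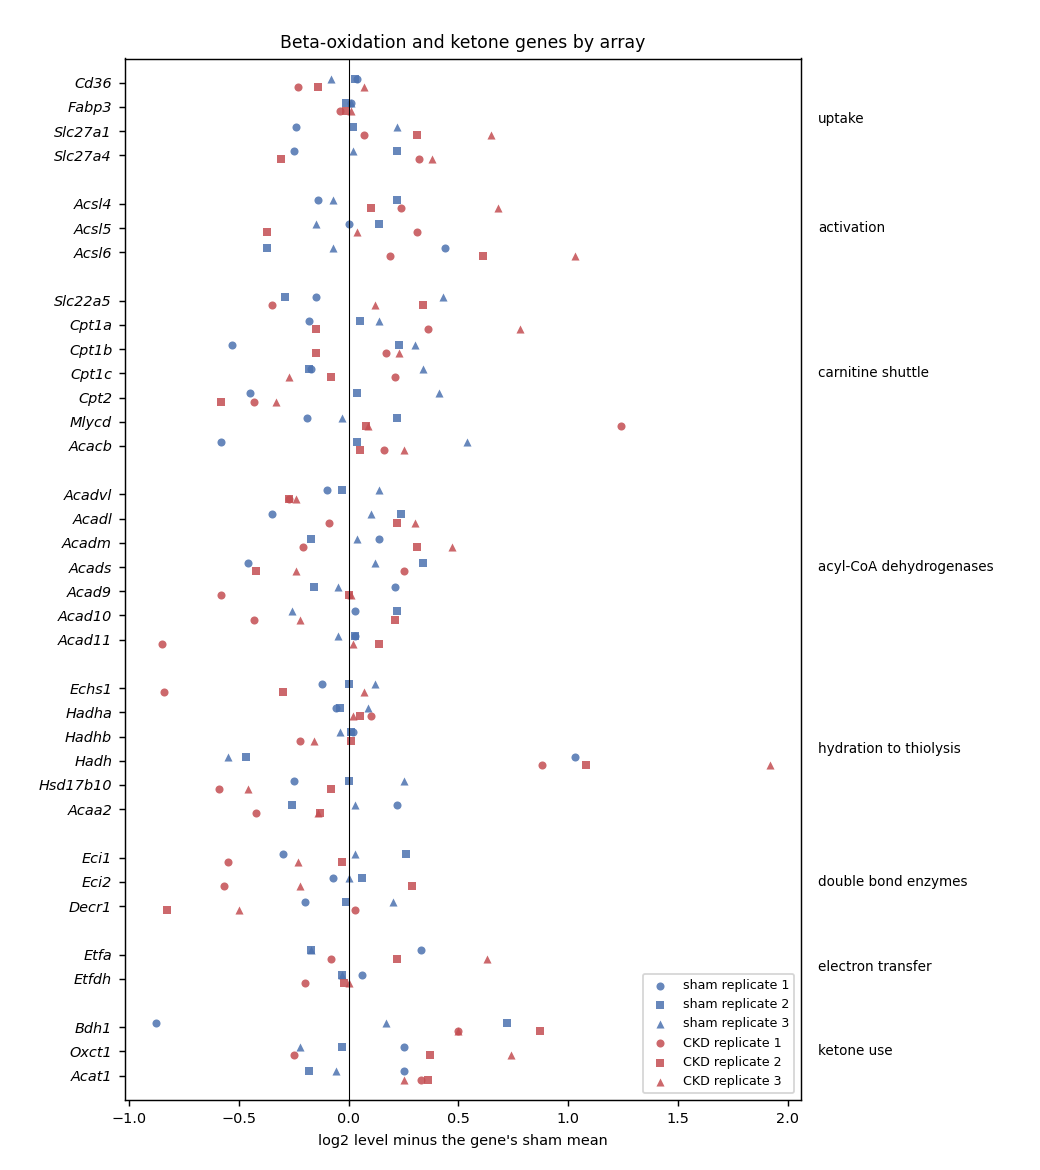
Log2 level of each of the 35 measured members on every array, minus the gene's mean in the 3 sham hearts, grouped by step. Blue marks are sham arrays and red marks CKD arrays, with a circle, square or triangle for replicate 1, 2 or 3. For Hadh, CKD replicate 3 lay farthest to the right at a level of 16.16 against a sham mean of 14.24, and sham replicate 1 lay among the CKD arrays.

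The spread between mice was as large as the differences for most members. The range of the 3 sham levels exceeded the difference of the group means in 27 of 35 members, and the range of the 3 CKD levels did so in 30. These counts were not taken over all genes, so they show nothing particular to the members. The median standard error of the log2 fold change was 0.231 for the members and 0.227 for all genes. Acadvl was the 1 member whose difference exceeded both ranges. It was also the 1 member whose CKD levels did not overlap its sham levels, against 13.6% of all genes in either direction and 6.71% with CKD below sham. Standard errors of the log2 fold change ran from 0.171 to 0.436 over the members. With these errors, 7 members had a 95% interval that stayed within 1.5-fold either way (20% of the members, against 22.8% of all genes). They were Cd36, Fabp3, Acsl5, Cpt1c, Hadha, Hadhb and Etfdh, and for the other 27 that did not pass the criterion a change of 1.5-fold in at least 1 direction was within the interval. Fabp3 and Hadhb had mean levels above 19, near the top of the scale at 20, where differences can be compressed. Cpt1c lay between 3.00 and 3.61 on all arrays, under the median gene level of 4.94. It is not known whether Cpt1c was above background.

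**Figure D2:**
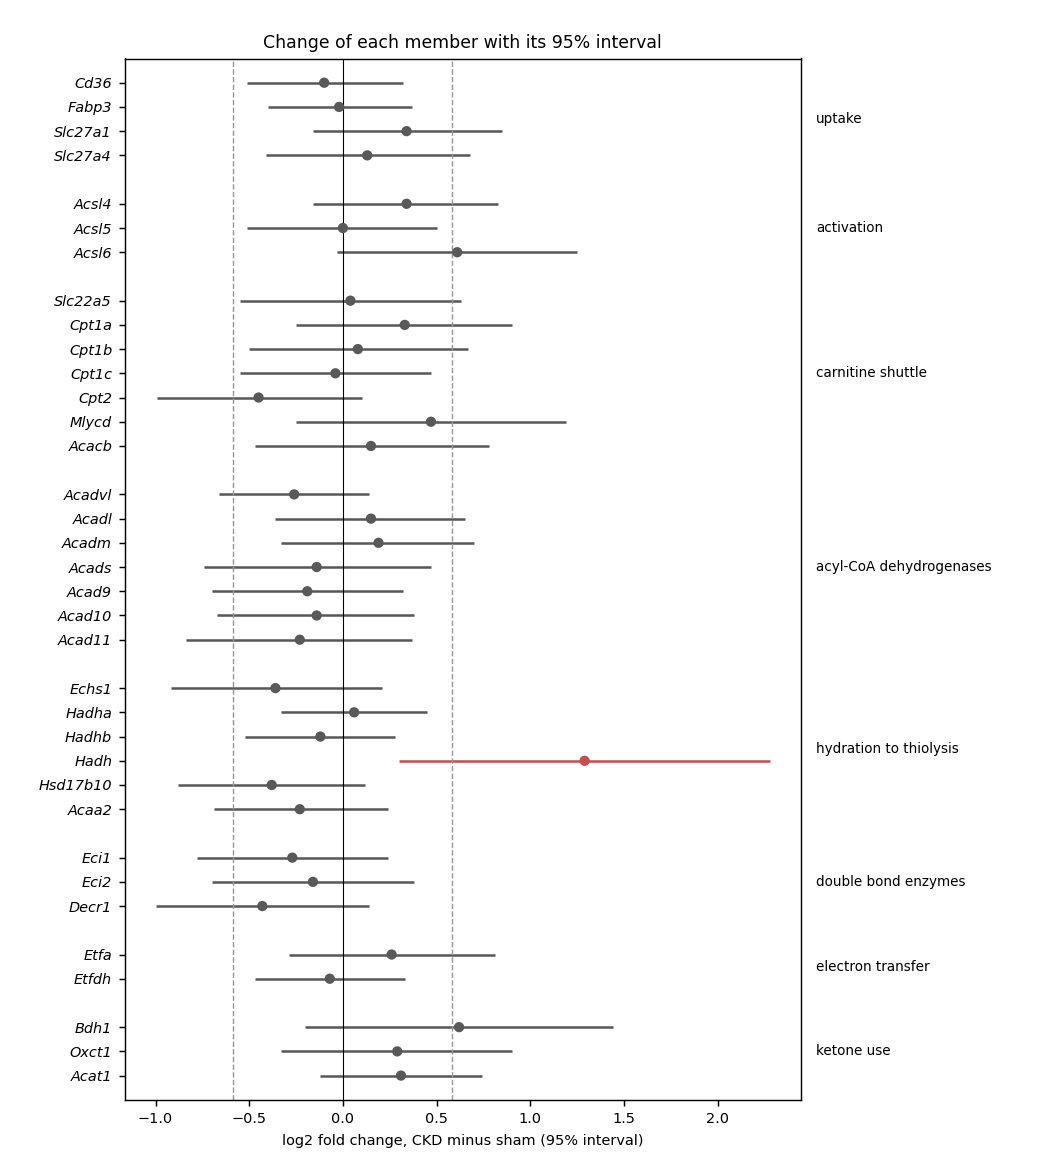
Log2 fold change of each member, CKD minus sham, with its 95% interval from limma (n = 3 mice per group), grouped by step. The dashed lines mark 1.5-fold in each direction, and Hadh, in red, is the member past the criterion, with an interval from 0.30 to 2.28.

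To show where these genes begin, the 250 bases before the RefSeq start are printed for 3 members (build GRCm38.p6, each 5′ to 3′ on the strand of the gene). Hadh was chosen as the member past the criterion, Acadvl as the member without overlap, and Acsl6 as the member of smallest p among those that missed the criterion. Such windows were found for 30 of the 35 measured members. For Acsl6, any window without the element marked below was left out. The Hadh window (chr3:131272102-131272351, minus strand) has the GC box letters GGGCGG or their reverse complement in capitals. In the Acadvl window (chr11:70015429-70015678, minus strand) the capitals mark the nuclear receptor half-site AGGTCA. In the Acsl6 window (chr11:54303574-54303823, plus strand) they mark the reverse complement of TNAAGGTCA, the element of estrogen-related receptors, which contains the half-site.
Hadh: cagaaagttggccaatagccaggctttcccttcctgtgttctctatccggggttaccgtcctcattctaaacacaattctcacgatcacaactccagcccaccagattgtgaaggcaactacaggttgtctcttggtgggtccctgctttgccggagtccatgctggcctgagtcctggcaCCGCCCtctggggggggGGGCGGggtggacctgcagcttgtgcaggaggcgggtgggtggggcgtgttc
Acadvl: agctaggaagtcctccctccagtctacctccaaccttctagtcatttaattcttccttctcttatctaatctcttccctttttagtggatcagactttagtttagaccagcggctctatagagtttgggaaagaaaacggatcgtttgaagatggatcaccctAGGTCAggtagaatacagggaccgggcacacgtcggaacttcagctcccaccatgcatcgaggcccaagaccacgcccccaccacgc
Acsl6: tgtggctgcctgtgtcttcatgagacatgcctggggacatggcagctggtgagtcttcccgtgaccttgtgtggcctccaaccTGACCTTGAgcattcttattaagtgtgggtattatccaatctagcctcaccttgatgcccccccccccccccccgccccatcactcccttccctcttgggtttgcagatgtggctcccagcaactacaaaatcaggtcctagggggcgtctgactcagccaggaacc

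On both strands, the GC box letters were in 32.7% of 32851 windows of this length and in those of 19 members. AGGTCA was in 14% of windows and in those of 7 members, Acadm, Acadvl, Acsl6, Cd36, Cpt1a, Cpt1c and Echs1. TNAAGGTCA was in 1.14% of windows and, among the members, in that of Acsl6. Windows were counted singly, and a gene could have several, while a member was counted if any of its windows matched. The shares of windows and the counts of members therefore cannot be compared. These matches describe letters, not binding.

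At the step of uptake, none of 4 members passed the criterion, and the median log2 fold change was 0.06. Cd36, the fatty acid translocase of the plasma membrane, averaged 18.45 ± 0.07 on the log2 scale in sham hearts (SD, n = 3 mice) and 18.35 ± 0.15 in CKD hearts (SD, n = 3 mice), with a 95% interval of the difference from −0.51 to 0.32. Fabp3, the fatty acid binding protein of heart muscle, lay between 19.88 and 19.93 on all 6 arrays, so close to the top of the scale that little difference could be seen. Slc27a1, a transporter that also activates fatty acids, had the smallest p of the step. Its log2 levels were 11.46, 11.72 and 11.92 in sham and 11.77, 12.01 and 12.35 in CKD hearts. The groups overlapped, and the log2 fold change was 0.34 (adjusted p = 0.702, standard error 0.22). The log2 fold change of Slc27a4, a related transporter, was 0.13, with levels between 4.79 and 5.48. Detection calls were not used here, so it is not known whether levels this low on the scale were above background. The same holds for Acsl6, Cpt1c and Acad10, the other members with a mean log2 level below 6.

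Among the acyl-CoA synthetases, which activate long-chain fatty acids, 3 of 5 members were measured, with a median of 0.34 on the log2 scale and none past the criterion. Acsl6, a form best known from brain, had log2 levels of 4.65, 3.84 and 4.14 in sham and 4.40, 4.82 and 5.24 in CKD hearts. It is not known whether these levels were above background. The stricter of the filters on dim genes left Acsl6 out, and the median of the step was then 0.17. Sham replicate 1 lay above CKD replicate 1, and the log2 fold change was 0.61 (standard error 0.28, unadjusted p = 0.0589, adjusted p = 0.569 from limma). It passed the criterion without sham replicate 1 (0.83), without CKD replicate 1 (0.82) and with array weights (0.90), always with an adjusted p above 0.05. The value was 0.42 when sham replicate 2 was left out and 0.40 when CKD replicate 3 was left out. Acsl4, which prefers arachidonic acid, had a value of 0.34 and Acsl5 of 0.00, with a 95% interval for Acsl5 from −0.51 to 0.50.

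None of 7 members of the carnitine shuttle and its control passed the criterion, and the median over them was 0.08 on the log2 scale. Cpt1b, the muscle form of the transferase that passes acyl groups to carnitine on the outer membrane, had log2 levels of 14.79, 15.55 and 15.62 in sham and 15.49, 15.17 and 15.55 in CKD hearts. All 3 CKD levels lay within the sham range, and the log2 fold change was 0.08 (95% interval from −0.50 to 0.67). It was −0.18 without sham replicate 1, the lowest of the 6 arrays. Cpt1a, the liver form, had a value of 0.33 (standard error 0.26) and Cpt1c, the brain form, of −0.04. Within arrays, the difference between Cpt1a and Cpt1b shifted by 0.24 (standard error 0.24, exact two-sided permutation test p = 0.4, adjusted p = 0.48 over 6 pairs of related genes chosen after their values were seen).

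Cpt2 returns the acyl group to CoA inside the mitochondrion. Its log2 levels were 10.97, 11.46 and 11.83 in sham and 10.99, 10.84 and 11.09 in CKD hearts. The sham level of replicate 1 lay among the CKD levels while the other 2 lay above them, and the log2 fold change was −0.45 (adjusted p = 0.637, standard error 0.24). Cpt2 passed the criterion without sham replicate 1 (−0.67) and was −0.24 without sham replicate 3. The carnitine transporter Slc22a5 had a value of 0.04. Mlycd, which degrades malonyl-CoA, had a log2 fold change of 0.47, with a standard error of 0.32, that rested mostly on CKD replicate 1 at 9.21, against 8.05 and 8.06 in the other CKD hearts and 7.78 to 8.19 in sham hearts. Acacb, the carboxylase that makes malonyl-CoA at the outer membrane, had a value of 0.15 and turned to −0.14 without sham replicate 1.

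The acyl-CoA dehydrogenases, which open each round of oxidation, had a median log2 fold change of −0.14, with 2 of 7 above 0 and none past the criterion. Acadvl, the very-long-chain form of the inner membrane, had log2 levels of 15.50, 15.57 and 15.74 in sham and 15.33, 15.33 and 15.36 in CKD hearts. Every CKD level lay below every sham level, with a log2 fold change of −0.26 (standard error 0.18, 95% interval from −0.66 to 0.14, adjusted p = 0.717 from limma). An exact permutation test on 3 mice a side gives such a separation a two-sided p = 0.1, and no arrangement of these mice reaches lower. With the methods' t-test, Acadvl had an unadjusted p = 0.0216 and an adjusted p = 0.576, and its 1.20-fold difference stayed under the fold limit. Acadm, the medium-chain form, had log2 levels of 14.07, 13.76 and 13.97 in sham and 13.72, 14.24 and 14.40 in CKD hearts. CKD hearts held both its lowest and its highest level, and the log2 fold change was 0.19 (standard error 0.23, 95% interval from −0.33 to 0.70).

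Acadl, the long-chain form, had a log2 fold change of 0.15 and −0.03 without sham replicate 1. The short-chain form Acads had −0.14, Acad9, which also assembles complex I, had −0.19, and Acad10 had −0.14. For Acad11, a dehydrogenase of the same family, the value of −0.23 came from CKD replicate 1 at 10.93, while the other 5 arrays lay between 11.73 and 11.92. The long-chain and very-long-chain forms differed in their change by 0.41 within arrays (standard error 0.19, exact two-sided permutation test p = 0.2, adjusted p = 0.4).

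The enzymes from hydration to thiolysis held the member that passed. Hadh had log2 levels of 15.27, 13.77 and 13.69 in sham and 15.12, 15.32 and 16.16 in CKD hearts, with means of 14.24 ± 0.89 (SD, n = 3 mice) and 15.53 ± 0.55 (SD, n = 3). Sham replicate 1 lay between CKD replicates 1 and 2, so the groups overlapped, while the other 2 sham hearts were lower than all others by more than 1. The log2 fold change was 1.29, or 2.45-fold (standard error 0.44, 95% interval from 0.30 to 2.28, unadjusted p = 0.0159, adjusted p = 0.448 from limma). It was 1.80 without sham replicate 1 and stayed past the criterion, and it fell short on leaving out CKD replicate 3 (0.98) or either of the low sham hearts, replicate 2 (1.05) and replicate 3 (1.01), and with the methods' t-test (unadjusted p = 0.0998, adjusted p = 0.697). Over all alternatives the adjusted p ran from 0.0641 to 0.879.

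**Figure D3:**
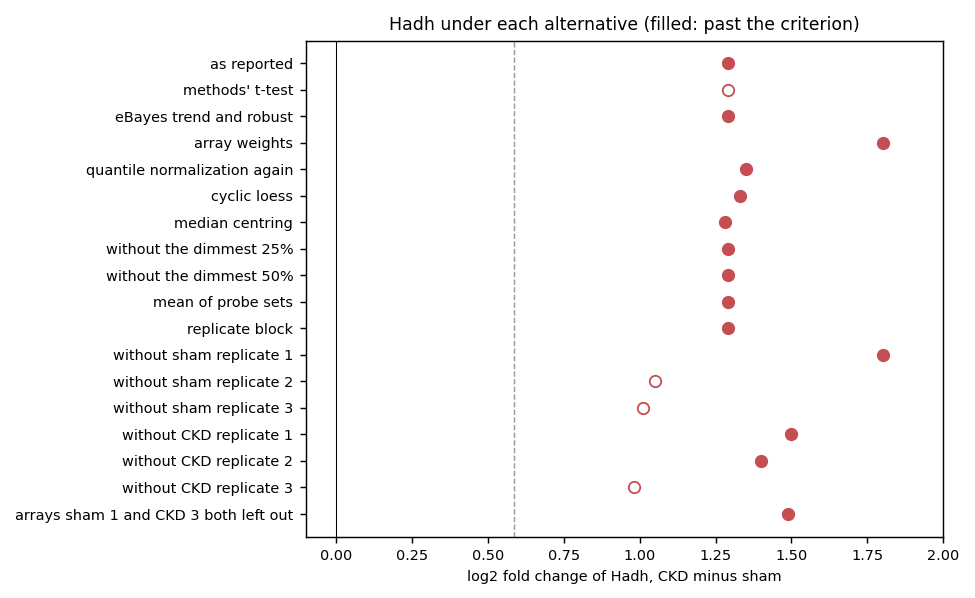
Log2 fold change of Hadh, CKD minus sham, as reported and under each alternative. Filled points passed the criterion and open points did not, and the dashed line marks 1.5-fold. All values lay between 0.98 and 1.80.

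Several genes of atrial muscle differed between the arrays in nearly the same order as Hadh. Myl4, the atrial light chain of myosin, had log2 levels of 10.91, 7.72 and 6.29 in sham and 11.01, 11.53 and 15.29 in CKD hearts, and Sln, the calcium pump regulator of the atria, had 9.15, 6.10 and 4.76 against 8.21, 8.75 and 12.98. For all 3 genes sham replicates 2 and 3 were the lowest arrays and CKD replicate 3 the highest. Over 6 measured atrial markers the mean log2 level was 10.54 in sham replicate 1 and at most 8.01 in the other sham hearts, and it was 13.75 in CKD replicate 3 against 9.85 and 10.06 in the other CKD hearts. Of these markers Myl4, Sln and Bmp10 were past the criterion, all higher (adjusted p = 0.385, 0.497 and 0.365 from limma). Nppa, the atrial natriuretic peptide, was ordered otherwise, with 19.02, 18.77 and 18.32 in sham and 17.91, 17.52 and 19.13 in CKD hearts (log2 fold change −0.52, adjusted p = 0.750). Their part in the result for Hadh was not tested. An alternative chosen after seeing the data left out sham replicate 1 and CKD replicate 3, the arrays with the most Myl4 in their groups. With 2 arrays left per group, Hadh had a log2 fold change of 1.49 (unadjusted p = 0.000418, adjusted p = 0.219 from limma). Sham replicate 1 was the sham array whose Hadh level lay among the CKD levels, so without it the groups were bound to separate. The small unadjusted p therefore lends the difference no support. Leaving both arrays out did not remove the atrial difference, since Myl4 had a log2 fold change of 4.26 without them and 4.30 with all arrays. In bulk tissue, more cells of a type and more RNA per cell cannot be told apart.

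The other enzymes of this step did not pass. Hadha and Hadhb are the subunits of the trifunctional protein, which handles long chains at the inner membrane. Hadhb had log2 levels of 19.13, 19.12 and 19.07 in sham and 18.89, 19.12 and 18.95 in CKD hearts, with a log2 fold change of −0.12 (95% interval from −0.52 to 0.28). CKD replicate 2 reached the sham levels, and this gene lay near the top of the scale. Hadha had a value of 0.06, with levels between 18.09 and 18.25. Within arrays, Hadh shifted against Hadha by 1.23 (standard error 0.64, exact two-sided permutation test p = 0.3, adjusted p = 0.45).

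Echs1, the short-chain hydratase, had a log2 fold change of −0.36 with a standard error of 0.25, and CKD replicate 1 was lowest at 14.25. Hsd17b10 also oxidises short 3-hydroxyacyl-CoA, mainly those of isoleucine breakdown, and had a value of −0.38 (standard error 0.22). The shift of Hadh against Hsd17b10 was 1.67 (standard error 0.74, exact two-sided permutation test p = 0.2, adjusted p = 0.4). Acaa2, a thiolase that closes the round, had −0.23.

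The 3 enzymes that deal with double bonds of unsaturated fatty acids all had log2 fold changes below 0, with a median of −0.27, and none passed the criterion. Decr1, the 2,4-dienoyl-CoA reductase, had log2 levels of 14.76, 14.95 and 15.16 in sham and 14.99, 14.13 and 14.46 in CKD hearts. CKD replicate 1 lay within the sham range, and the log2 fold change was −0.43 (adjusted p = 0.660, standard error 0.25). Without CKD replicate 1 it was −0.66 and passed the criterion, and without CKD replicate 2 it was −0.23. The isomerases Eci1 and Eci2 had values of −0.27 and −0.16.

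Electron transfer from the dehydrogenases to ubiquinone was represented by 2 of 3 members, and neither passed. Etfa, the alpha subunit of the electron transfer flavoprotein, had log2 levels of 17.49, 16.99 and 16.99 in sham and 17.08, 17.38 and 17.79 in CKD hearts. Sham replicate 1 was the highest array but CKD replicate 3, and the log2 fold change was 0.26 (adjusted p = 0.815, standard error 0.25). Etfdh, the oxidoreductase that receives these electrons, lay between 16.94 and 17.20 on all arrays, with a value of −0.07 (95% interval from −0.47 to 0.33).

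All 3 genes of ketone use had log2 fold changes above 0, with a median of 0.31, and none passed the criterion. Bdh1, which oxidises 3-hydroxybutyrate, had log2 levels of 9.54, 11.14 and 10.59 in sham and 10.92, 11.29 and 10.92 in CKD hearts. Sham replicate 2 lay above 2 of the CKD hearts while sham replicate 1 was lowest of all, and the log2 fold change was 0.62 (standard error 0.36, unadjusted p = 0.123, adjusted p = 0.665). Without sham replicate 2 it was 0.98 and passed the criterion, and without sham replicate 1 it was 0.18. Oxct1, the CoA transferase that commits ketone bodies to oxidation, had a value of 0.29 (standard error 0.27), with levels from 17.23 to 17.70 in sham and from 17.20 to 18.19 in CKD hearts. Acat1, the thiolase that splits acetoacetyl-CoA, had 0.31 (standard error 0.19), and its CKD levels of 16.57 to 16.68 met the sham levels at sham replicate 1, also 16.57.

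**Figure D4:**
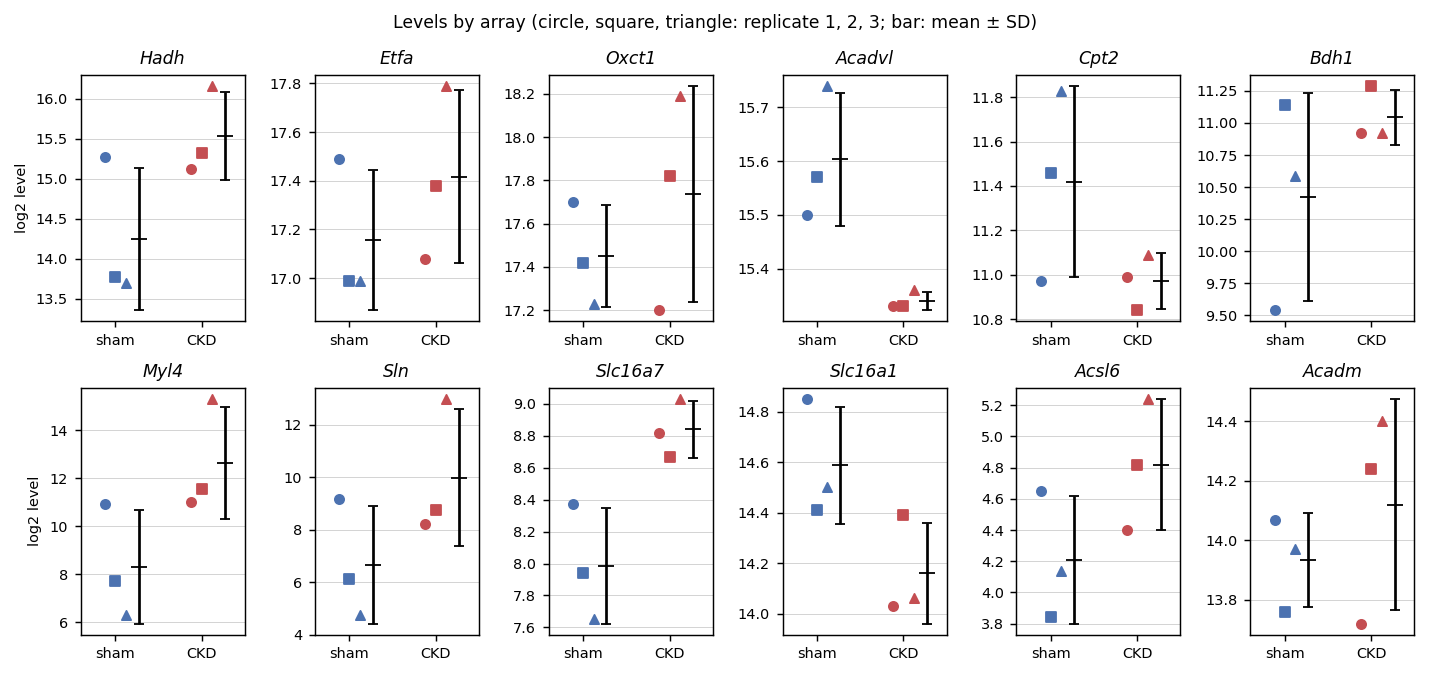
Log2 levels of 8 members, of the atrial genes Myl4 and Sln and of the monocarboxylate transporters Slc16a7 and Slc16a1 on each array, sham in blue and CKD in red, with mean ± SD (n = 3 mice per group). Each panel has its own log2 axis, and the groups were apart in Acadvl, Myl4, Slc16a7 and Slc16a1.

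Some arrays lay at the edge of their group more often than others. Sham replicate 1 was the lowest sham array in 18 members (51.4%, against 37.8% of all genes) and the highest in 11 (31.4% against 37.5%). CKD replicate 1 was the lowest CKD array in 20 members (57.1% against 37.7%), and CKD replicate 3 was the highest in 19 (54.3% against 29.2%). These shares are descriptions with no test. By step, the mean deviation from each gene's own mean was −0.36, −0.03 and 0.26 for the carnitine shuttle in sham replicates 1 to 3, and 0.15, −0.11 and 0.08 in CKD replicates 1 to 3, so that the sham arrays spanned the CKD arrays. Sham replicate 1 was not low at every step, with 0.12 from hydration to thiolysis and 0.15 for electron transfer. For ketone use it was −0.33, −0.03 and −0.24 in sham and −0.01, 0.33 and 0.29 in CKD hearts. The double bond enzymes had −0.04, 0.25 and 0.22 in sham and −0.22, −0.04 and −0.17 in CKD hearts. For neither ketone use nor the double bond enzymes did the groups separate by more than 0.02.

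Further genes of oxidation and ketone handling were taken from a list by role. Of 18 measured, 1 was higher, none was lower and the median log2 fold change was −0.09. The higher gene was Slc16a7, the monocarboxylate transporter MCT2, which carries ketone bodies, lactate and pyruvate. Its log2 levels were 8.37, 7.94 and 7.65 in sham and 8.82, 8.67 and 9.03 in CKD hearts. The groups did not overlap, and the log2 fold change was 0.85 (adjusted p = 0.346, standard error 0.23, both from limma).

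Slc16a1, the related transporter MCT1, had log2 levels of 14.85, 14.41 and 14.50 in sham and 14.03, 14.39 and 14.06 in CKD hearts. Its CKD levels were all below the sham levels, with a log2 fold change of −0.43 (adjusted p = 0.584, standard error 0.21) that did not pass the criterion. Within arrays the transporters shifted against each other by 1.28 (standard error 0.24), and the exact two-sided permutation test gave p = 0.1, the smallest it can give for 3 against 3 (adjusted p = 0.4). With Slc16a7 above and Slc16a1 below all sham levels in every CKD heart, this p was fixed when the pair was chosen. The test adds nothing to the separation of each gene. The carnitine-acylcarnitine carrier Slc25a20, which stands between Cpt1b and Cpt2, had a value of −0.20, and Crat, which makes acetylcarnitine, of −0.38.

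Over 8 measured regulators of these genes the median was −0.28 on the log2 scale, with 1 lower and none higher. The lower gene was Ppargc1a, the coactivator PGC1α, at −0.65 (adjusted p = 0.424, standard error 0.21). Ppara, the nuclear receptor that binds fatty acids and drives many members, differed by −0.52 on the log2 scale (unadjusted p = 0.035, adjusted p = 0.497, standard error 0.21), 1.43-fold and so under the fold limit. Of 9 measured PPARα targets outside the members, Ucp3, an uncoupling protein of muscle, was higher (0.88, adjusted p = 0.466 from limma). Its groups overlapped, with CKD replicate 3 at 8.93 and sham replicate 3 at 9.12. Plin2, a coat protein of lipid droplets, was lower (−0.90, adjusted p = 0.344 from limma). Pdk4, which blocks pyruvate oxidation, ran from 12.56 to 14.63 in sham and from 13.35 to 15.37 in CKD hearts, with a value of 0.72 (standard error 0.60).

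All arrays had a median log2 level between 4.83 and 4.86. Markers of cardiac muscle had a mean log2 level between 17.62 and 17.90 on every array, a median log2 fold change of −0.03 and none of 12 past the criterion. Of these, Tnnt2, Pln, Myl2 and Atp2a2 lay at the top of the scale, where differences are compressed, and the others ran from −0.42 (Mybpc3) to 0.48 (Myh6). White fat, which also handles fatty acids, had mean marker levels of 4.72, 5.62 and 5.03 in sham and 5.52, 5.55 and 6.66 in CKD hearts. Only CKD replicate 3 lay above the sham range. Of 8 white fat markers, 1 was higher and none was lower, with a median of 0.73. Of 4 markers of brown fat, whose cells are rich in beta-oxidation, Ucp1 was higher (1.09, adjusted p = 0.346 from limma). Its levels of 2.21 to 2.67 in sham and 3.02 to 4.16 in CKD hearts lay near the bottom of the scale. Of 9 macrophage markers, 3 were lower and none was higher, with a median of −0.67. Of 6 markers of smooth muscle and pericytes, 2 were higher and none was lower, while none of 7 endothelial or 7 fibroblast markers passed. Their part in the values of the members was not tested.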

How the data were processed

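Total RNA of 3 sham and 3 CKD hearts was measured on 1 Clariom S array each. The authors deposited log2 levels after robust multiarray averaging (RMA, with no version stated in the sources used here). Of 22206 probe sets, 19572 had 1 gene symbol in the platform annotation, none had several and 2634 were unnamed. For 55 genes with several probe sets the brightest was used, and every measured member had 1. The number of arrays limits the precision.

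The difference CKD minus sham was fitted over 19505 genes in R 4.3.3 with limma 3.58.1 (lmFit, eBayes), without covariates, with Benjamini-Hochberg adjustment over all genes. The fit was tested on simulated data. Alternatives were the methods' t-test, eBayes options, array weights, renormalizations, filters on dim genes, the replicate number as a block, other fold limits and arrays left out. Members, steps and lists were chosen with earlier results of these data known. The study counts the 6 arrays as 6 mice, and p-values measure only the spread between them. The promoter windows printed and the motifs reported were chosen after matches and values were seen, and other motifs searched are not reported. Every measured member is named. Values by array are given for the member of smallest p in each step, for members past the criterion, and for Acadm, Cpt1b and Hadhb, and further values were chosen after they were seen. Promoter windows came from RefSeq, matched by symbol.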

Additional observations from a re-analysis of the deposited data

How the results depend on the processing

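Of 592 values of single members under the alternatives, 554 kept their sign and their side of the criterion, and 14 of 35 members changed sign at least once. The lowest adjusted p of any member under them was 0.0641 (Hadh, array weights). With the methods' t-test, 307 genes were higher and 318 lower, none of the members was, and no gene passed after adjustment. Array weights gave 1023 higher and 1028 lower genes and 2 higher members, a fold limit of 2 gave 158 and 127 genes, and an adjusted p under 0.05 gave 2 and 0 genes and no member. Leaving out single arrays gave 472 to 1091 higher and 497 to 957 lower genes, with 1091 and 946 without CKD replicate 1 and 957 lower without sham replicate 1. It gave 0 to 2 higher and 0 to 1 lower members, and a median over the members of −0.04 to 0.11. The median by step ran from −0.01 to 0.17 for uptake, 0.17 to 0.46 for activation, −0.13 to 0.26 for the carnitine shuttle, −0.26 to 0.01 for the dehydrogenases, −0.23 to −0.09 from hydration to thiolysis, −0.41 to −0.13 for double bond enzymes, −0.02 to 0.21 for electron transfer and 0.27 to 0.56 for ketone use. Among members that changed sign, the ranges were −0.16 to 0.18 for Acsl5, −0.11 to 0.26 for Slc22a5, −0.18 to 0.23 for Cpt1b, −0.17 to 0.13 for Cpt1c, −0.14 to 0.42 for Acacb, −0.03 to 0.27 for Acadl, −0.37 to 0.03 for Acads, −0.29 to 0.01 for Acad9, −0.42 to 0.08 for Acad11 and −0.39 to 0.04 for Eci2. Without both sham replicate 1 and CKD replicate 3, an alternative chosen after seeing the data, 1 member was lower (Cpt2, −0.73), the median of activation was 0.10, and signs changed for Slc27a4 (−0.12), Slc22a5 (−0.07), Cpt1b (−0.26), Acacb (−0.18) and Acadl (−0.10). Quantile normalization applied again moved the median from hydration to thiolysis to −0.05, Cd36 to 0.06, Fabp3 to 0.00 (just above), Acsl5 to 0.02 and Etfdh to 0.02, cyclic loess moved Fabp3 to 0.06, and array weights moved Cpt1b to −0.02. The causes were not tested. The labels do not say whether sham and CKD mice of the same replicate number were paired, and a figure legend of the study speaks of 3 pairs. Correlations of deviations lay between −0.19 and −0.03 over the 3 numbers, which cannot settle this. The replicate block gave 602 higher and 599 lower genes and the same member count of 1 higher and 0 lower.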
